A study of Homo sapiens with 6 samples.

Results

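The resting transcriptome of H2122 cells, an established human lung adenocarcinoma line, was described from the 3 libraries labelled as control shRNA. They were 3 of the 6 samples of the series and were chosen by that label alone. The cells had been transfected with a control shRNA and harvested after 48 hours, without knockdown of LYCAT (LCLAT1). The other 3 samples, which received an shRNA against LYCAT, were not used here, and no cells without transfection were analysed here, so the levels are those of transfected cells. All values come from 1 line, and the labels leave unsaid whether the 3 libraries were separate cultures. The deposited table held whole-number counts for 23368 gene symbols, and the 3 libraries summed to 4622452, 4930079 and 4075367 counts. Levels are given as counts per 1000000 (CPM, scaled between libraries with TMM). Where genes are compared with each other, levels are given per kilobase of exon and scaled to a sum of 1000000 (TPM). A level of 3 counts corresponded to 0.646, 0.609 and 0.74 CPM in libraries 1, 2 and 3, so values near or under 1 CPM were measured with little precision.

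H2122 is known to carry mutations in STK11 and KEAP1. KEAP1 normally marks the transcription factor NRF2 (NFE2L2) for degradation, and NRF2 drives genes for glutathione, thioredoxin, quinone reduction, iron storage and NADPH. In lung adenocarcinoma, loss of KEAP1 is known to leave NRF2 active without an oxidative signal. STK11 encodes the kinase LKB1, which acts on energy metabolism.

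The 3 libraries were alike but not interchangeable. Across 9979 genes whose mean was 5 CPM or more, log2 CPM of each pair correlated with Pearson r of 0.989 to 0.99, a description across genes, which are not independent replicates. Pairs differed by more than counting error, with a chi-square per degree of freedom of 2.50 for libraries 1 and 2, 1.71 for libraries 1 and 3 and 2.23 for libraries 2 and 3. No pair agreed within sampling noise, so each library was treated as a sample of its own. An edgeR likelihood ratio test that allows counting error only called 725 of the 9979 genes (7.27%) as different between libraries at an adjusted p under 0.05. Such calls grew with level, from 2.87% of genes at 5 to 10 CPM to 71.4% of the 126 genes at 1000 CPM or more, where counting error is small. The differences themselves were mostly small, since 61 of the 725 genes differed by 2-fold or more between the highest and the lowest library. Of these 61, library 1 was highest in 28, library 2 in 23 and library 3 in 10, and library 3 was lowest in 40. The number called was 392 without library 1 and 119 without library 2, and the number that also differed by 2-fold was 29 to 32 with 1 library left out. HSP90AA1, the inducible cytosolic HSP90 chaperone and the gene with the most counts, had the highest ratio of spread to counting error and yet varied only from 9134 to 10510.2 CPM.

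**Figure D1:**
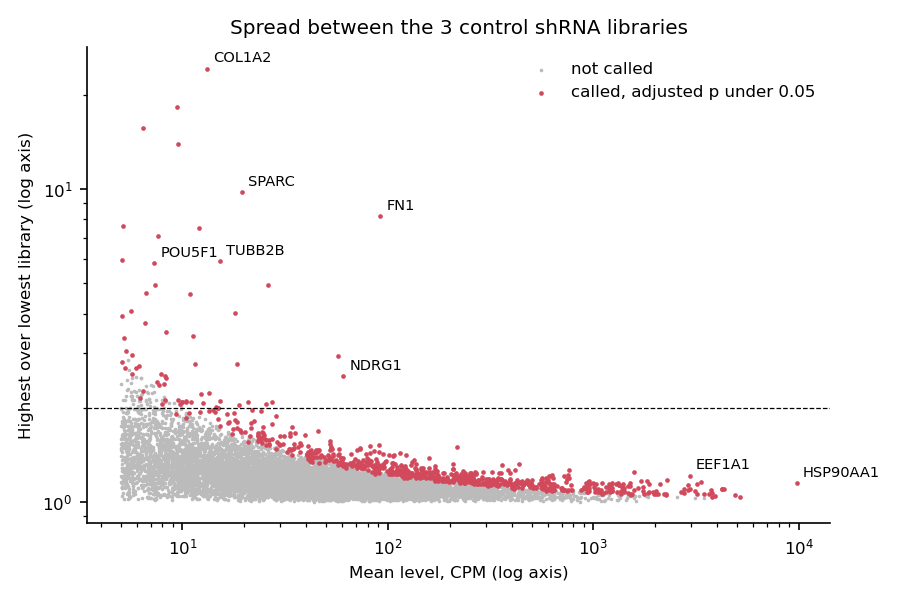
Each point is 1 of the 9979 genes, with its mean level in CPM on a log axis and the ratio of its highest to its lowest library on a log axis; the dashed line marks 2-fold. Called genes (red, 725) lie above 2-fold in 61 cases, mostly under 100 CPM, and abundant called genes such as HSP90AA1 and EEF1A1 lie close to 1.

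Library 1 stood apart in genes of pluripotent stem cells, a list of 24 genes drawn up after this spread was seen. POU5F1, which encodes the pluripotency factor OCT4, was at 15.7, 3.45 and 2.71 CPM in libraries 1, 2 and 3. LIN28A, an RNA-binding protein of early embryonic cells, was at 15.7, 4.87 and 2.22 CPM, and TDGF1, a Nodal co-receptor, at 10.8, 1.42 and 0.74 CPM. Library 1 was several times above both others in each of them. NANOG was at 3.87, 0.406 and 0 CPM, and the stem cell transcripts ESRG, DPPA4 and L1TD1 were also highest in library 1. The 24 genes summed to 221, 153 and 138 CPM, and each of them had a count in at least 1 library. Library 1 was the highest in 21 of them, which describes the observation that led to the list. Of the tested members, 2 of 6 were called, where 7.27% of all tested genes were. That count is no test of the list, which came from this spread. The 2 called, POU5F1 and LIN28A, reached a mean of 5 CPM only through library 1. Differences were small in members with broader expression, since TERF1, a telomere protein, was at 70.6, 73.9 and 71.5 CPM and DNMT3B, a DNA methyltransferase, at 24.3, 19.5 and 18 CPM. POU5F1B, a POU5F1 copy on which reads can be split, was at 22.6, 4.26 and 1.23 CPM. The tubulin gene TUBB2B was at 31.9, 8.32 and 5.42 CPM and the interferon-induced membrane protein gene IFITM1 at 33.8, 12.2 and 8.38 CPM. Both were again highest in library 1. IFITM1 shares 32.5% of its exon bases with other genes, so part of its reads may belong to those genes.

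Libraries 1 and 2 stood above library 3 in genes of connective tissue matrix. FN1, fibronectin, was at 93, 162 and 19.7 CPM (edgeR adjusted p = 4.02e-116). Of the fibrillar collagen genes, COL1A1 was at 59.6, 82.8 and 28.3 CPM, COL1A2 at 14.4, 24 and 0.986 CPM and COL3A1 at 10.1, 17.3 and 1.23 CPM. SPARC, a collagen-binding protein, was at 21.1, 33.7 and 3.45 CPM. All of them were highest in library 2 and lowest in library 3. The imprinted transcript H19 (28.2, 41.4 and 8.38 CPM) and the cardiac actin gene ACTC1 (15.1, 18.5 and 2.47 CPM) had the same order, and DLK1, another imprinted gene, was also lowest in library 3 (7.32, 6.70 and 1.23 CPM). Of the 9 fibroblast markers 8 had a count, and they summed to 90.4, 131 and 31.3 CPM. The 3 tested members were the collagen genes just named, and 3 of 3 were called, where 7.27% of all tested genes were. That count is no test of the list, since COL1A2 and COL3A1 reached a mean of 5 CPM only through libraries 1 and 2. Among the defining fibroblast markers, LUM was at 1.08, 3.86 and 0.247 CPM, PDGFRB at 0.43, 0.609 and 0 CPM and DCN at 0, 0.203 and 0 CPM, and FAP, which defines activated fibroblasts, was at 0 in every library. Of the basement membrane genes, the laminins LAMB1 and LAMC1 were not lowest in library 3, at 139, 142 and 146 CPM and 163, 126 and 155 CPM. The basement membrane collagen COL4A1 was lowest there, at 34.2, 33.1 and 22.4 CPM (edgeR adjusted p = 0.0314). RPS4Y1, a Y-linked ribosomal protein gene, was also lowest in library 3, at 6.89, 7.51 and 0.986 CPM (edgeR adjusted p = 7.1e-05). Like COL1A2 and COL3A1, RPS4Y1 reached a mean of 5 CPM, and so was tested, only through libraries 1 and 2. The source of the RPS4Y1 counts and of these stem cell and matrix transcripts was not tested. In bulk RNA, fewer cells of a kind and less RNA per cell cannot be told apart. In what follows, results that rest on these genes are given by library.

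**Figure D2:**
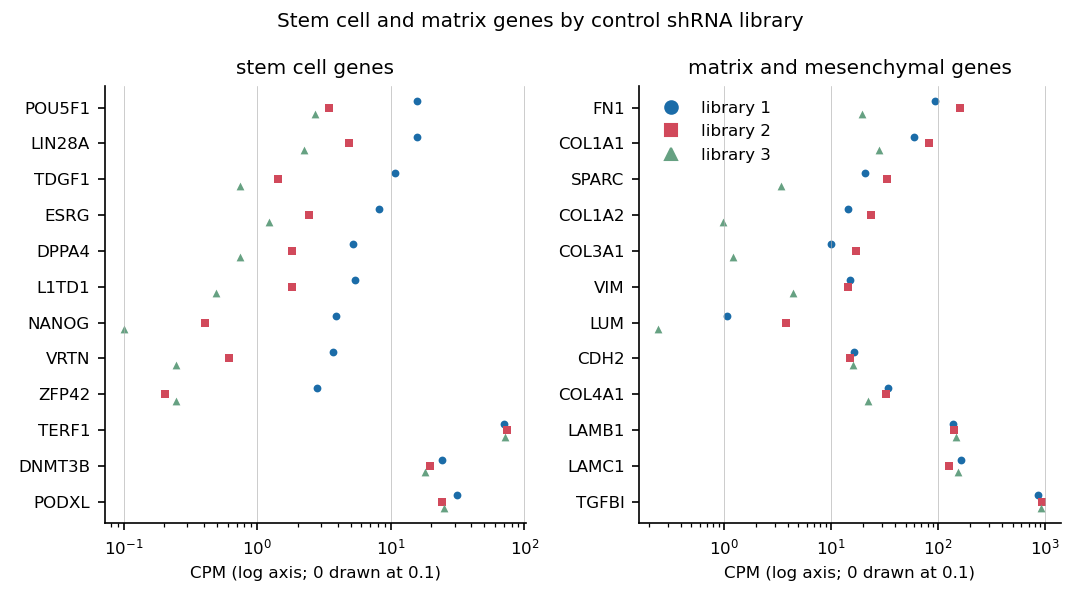
Each point is the level of 1 gene in 1 library, in CPM on a log axis with 0 drawn at 0.1, for 12 stem cell genes (left) and 12 matrix and mesenchymal genes (right), chosen after their values were seen. Library 1 (circles) is the highest for POU5F1, LIN28A and TDGF1, library 3 (triangles) is the lowest for FN1, SPARC and the fibrillar collagens, and TERF1, LAMB1 and TGFBI lie together.

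Of the 23368 symbols, 7783 (33.3%) had no count in any library, 3606 had a mean under 1 CPM, 3256 lay between 1 and 10 CPM, 6524 between 10 and 100 CPM and 2199 at 100 CPM or more. Genes at 10 CPM or more were thus 37.3% of the table, and those at 100 CPM or more held 72.9% of all counts. The 37.3% at 10 CPM or more and the 33.3% without a count are the shares to set beside list counts below. The median level was 1.30 CPM over all genes and 14.9 CPM over genes with a count. Counts were spread over many genes: the 10 most abundant took 4.67%, 4.87% and 4.79% of a library, the top 100 took 20.8% to 21.2% and the top 1000 took 56.2% to 56.7%. By counts, HSP90AA1 led at 9749 ± 699.7 CPM (SD, n = 3, as for all means below), ahead of the ferritin light chain FTL at 5143 ± 103 CPM, the aldo-keto reductase AKR1C2 at 4862 ± 137 CPM and the ferritin heavy chain FTH1 at 4345 ± 211 CPM. The glycolytic enzyme GAPDH stood at 4214 ± 193 CPM and the tubulin TUBA1B at 3786 ± 70.8 CPM. Other genes among the 20 with the most counts were ribosomal proteins, HSP90AB1, NPM1, TPT1, EEF1A1, ENO1 and the nuclear noncoding RNA MALAT1.

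Per length the order changed. FTL had 19697 ± 248 TPM, more than any other gene with a reliable length. It was followed by S100A6, a calcium-binding protein, at 7926 ± 699 TPM, FTH1 at 7199.5 ± 366 TPM and HSP90AA1 at 6246 ± 417 TPM. The peroxiredoxin PRDX1 (5890.2 ± 186 TPM), the mitochondrial protein CHCHD2 (5857 ± 141 TPM), the actin-binding peptide TMSB10 (5839.6 ± 259 TPM) and thioredoxin, TXN (5392 ± 449 TPM), came next. FTL, FTH1, PRDX1 and TXN are all targets of NRF2. The levels of PRDX1, CHCHD2 and TMSB10 lay within their SDs of each other and have no order. FTH1 and PRDX1 share 62.4% and 24.9% of their exon bases with other genes, and use of strand in counting is unknown. Their levels and ranks are therefore less certain. ATP5EP2, RPSAP58 and NACA2, near-identical copies of other genes among which counting can split reads, also ranked among the top 20, with ATP5EP2 ahead of FTL, and these values are uncertain.

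**Figure D3:**
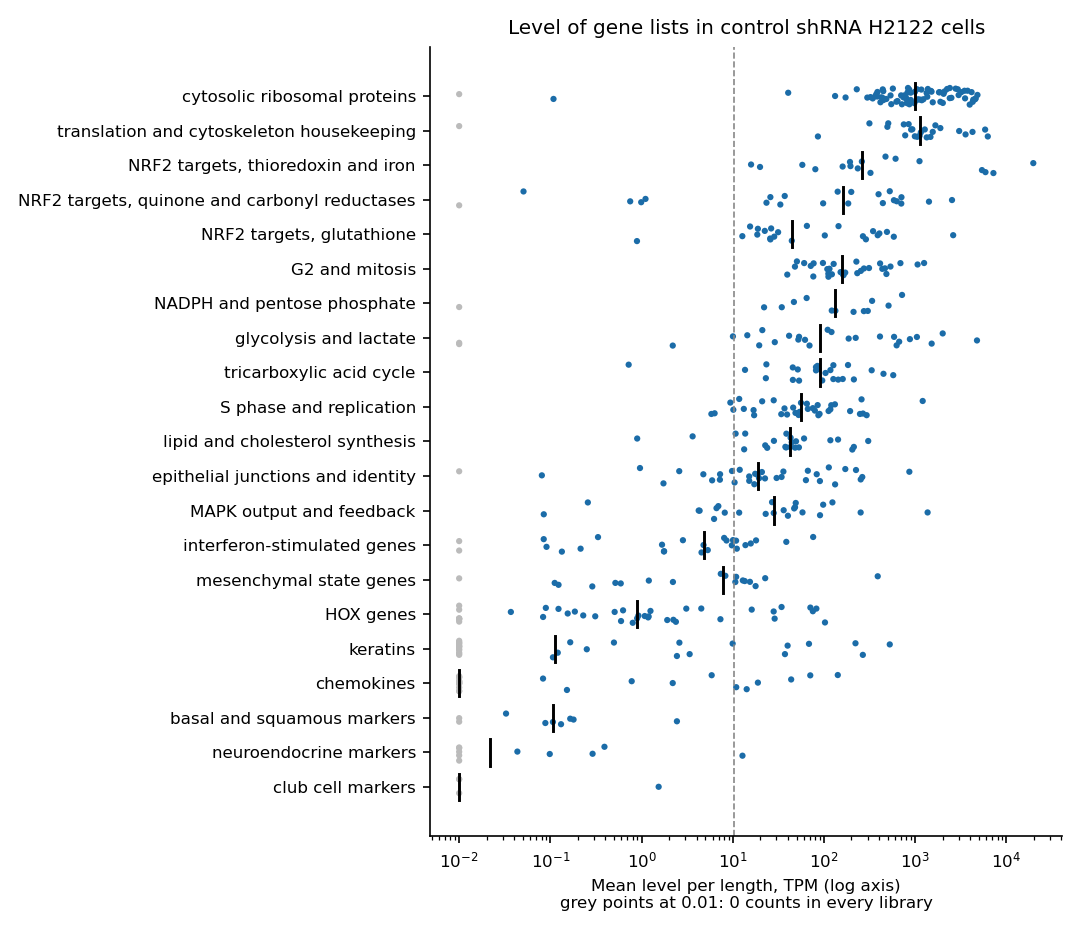
Each point is the mean level of 1 gene over the 3 libraries in TPM on a log axis, by gene list; grey points at 0.01 are genes without a count, black bars are list medians and the dashed line is the median of genes with a count (10.3 TPM). The medians of the 3 lists of NRF2 targets lie to the right of that line, as do those of the ribosomal, mitotic and metabolic lists, while keratins, chemokines and club cell markers lie mostly to its left.

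Targets of NRF2 were abundant in these cells. Over 3 lists, 62 targets of NRF2 took 3.58%, 3.55% and 3.64% of all counts in libraries 1, 2 and 3. Of the 62, 56 were at 10 CPM or more, against 37.3% of all genes, 35 were at 100 CPM or more and 10 at 1000 CPM or more. Their median was 146 CPM, against 1.30 CPM over all genes and 27.9 CPM over genes at 1 CPM or more. The lists were drawn up with earlier results of these data known, so these counts describe the lists and are not a test of them.

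The core of the antioxidant response element, the site that NRF2 binds with a small MAF partner, was searched in promoter windows from 250 bases before to 50 bases after gene starts (RefSeq, GRCh38.p14). The motif was TGACNNNGC on either strand. It was found in 13.4% of all 35093 windows and in 15 of 62 windows (24.2%) of the 48 NRF2 targets that had one. By level, it was in 12.8% of windows of genes without a count and in 15.7% of those of genes at 100 CPM or more. A match is a description of the letters and not a measured binding site. The windows of 3 glutathione genes with a match, chosen after their levels were seen, are shown up to the base before the start. The core is in capitals, as it reads on the strand of the gene, which in GCLM and GPX2 is the reverse complement of the motif. The genes are GSTP1, a glutathione transferase (chr11:67583562-67583811, plus strand), the modifier subunit of glutamate-cysteine ligase GCLM (chr1:93909431-93909680, minus strand) and GPX2 (chr14:64942746-64942995, minus strand).
GSTP1: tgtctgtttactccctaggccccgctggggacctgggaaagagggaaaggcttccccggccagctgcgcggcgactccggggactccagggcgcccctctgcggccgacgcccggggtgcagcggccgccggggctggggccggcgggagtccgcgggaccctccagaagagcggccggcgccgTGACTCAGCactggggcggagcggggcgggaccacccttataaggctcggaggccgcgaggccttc
GCLM: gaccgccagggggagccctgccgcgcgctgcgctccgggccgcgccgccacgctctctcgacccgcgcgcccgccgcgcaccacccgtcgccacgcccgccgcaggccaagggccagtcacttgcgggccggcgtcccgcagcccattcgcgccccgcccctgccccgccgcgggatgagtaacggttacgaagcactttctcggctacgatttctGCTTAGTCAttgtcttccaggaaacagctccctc
GPX2: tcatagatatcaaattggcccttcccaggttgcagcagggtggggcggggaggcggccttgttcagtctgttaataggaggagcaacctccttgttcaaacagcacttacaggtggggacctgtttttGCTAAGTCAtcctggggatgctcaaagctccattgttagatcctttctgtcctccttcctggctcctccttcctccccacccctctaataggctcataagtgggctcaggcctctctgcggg
The core began 66 bases before the start in GSTP1, 34 in GCLM and 122 in GPX2. In a core that also holds TGACTCA, such as that of GSTP1, the match overlaps the AP-1 motif, which was the case in 4.20% of all windows with the core.

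All 10 regulators of the programme were at 10 CPM or more, and 4 of them at 100 CPM or more. NFE2L2 was at 107, 96.8 and 94.4 CPM and KEAP1 at 85.9, 86.1 and 90.7 CPM, with adjusted p of 0.375 and 0.859 between libraries (edgeR). SQSTM1, an autophagy receptor that binds KEAP1 and is itself a target, was the most counted of the 10 regulators at 1846 ± 62.2 CPM. The small MAF partners MAFG, MAFK and MAFF stood at 179 ± 9.05, 74.3 ± 7.10 and 14.6 ± 1.12 CPM. The repressor BACH1, which competes for the same sites, stood at 30.2 ± 4.58 CPM. CUL3 and RBX1, the ligase that KEAP1 recruits, stood at 102 ± 7.33 and 153 ± 3.44 CPM.

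Among thioredoxin and iron genes, 17 of 17 were at 10 CPM or more, with a median of 323 CPM. The thioredoxin reductase TXNRD1 was at 1003, 866 and 955 CPM, thioredoxin TXN at 1960.1, 1679 and 1852 CPM and sulfiredoxin SRXN1, which repairs peroxiredoxins, at 884, 855 and 942 CPM. TXNRD1 and TXN were lowest in library 2 and were called between libraries (edgeR adjusted p = 3.29e-09 and 5.15e-21), although the differences were small. NR0B1, a nuclear receptor dependent on NRF2 in such lines, was at 53.8, 48.3 and 55.7 CPM. Ferrochelatase, FECH, and the haem transporter gene SLC48A1 were at 213 ± 9.63 and 29.1 ± 4.29 CPM. HMOX1, the haem oxygenase that is among the best known targets, was low in comparison, at 9.25, 15.4 and 9.37 CPM. It ranked 6199 of 21657 genes by TPM, where TXNRD1 ranked 363, SRXN1 135 and FTL 2.

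Of the glutathione genes 22 of 23 were at 10 CPM or more. SLC7A11, the cystine importer, was at 1099.7, 1081 and 1155 CPM, and its partner SLC3A2 at 294, 307 and 299 CPM. Glutamate-cysteine ligase makes the first step of glutathione synthesis, and its subunits GCLM and GCLC were at 416, 432 and 443 CPM and at 118, 110.0 and 114 CPM. Per length GCLM (267 ± 6.42 TPM) stood above the catalytic subunit GCLC (44.3 ± 1.78 TPM). GSTP1 was the most counted glutathione transferase at 1481 ± 53.1 CPM, and MGST1, the membrane-bound form, followed at 1084 ± 5.68 CPM. Glutathione reductase, GSR, was at 419, 331 and 407 CPM, lowest in library 2. The peroxidases GPX3, GPX2, GPX1 and GPX4 stood at 271 ± 12, 259.5 ± 25, 172 ± 8.61 and 86.6 ± 10.1 CPM. The exporters ABCC3, ABCC1, ABCC5 and ABCC2 lay between 43.2 and 64.1 CPM. GSTA1 was the only member under 10 CPM, at 0.271 CPM.

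Among quinone and carbonyl reductases, AKR1C2 was at 4783, 4782 and 5019.5 CPM, AKR1C1 at 1818, 1824 and 1879.6 CPM and AKR1C3 at 702, 724 and 699.8 CPM. These genes are close paralogs among which counting can split reads, so the sum is the firmer value, and it was 7303, 7330.3 and 7599 CPM in libraries 1, 2 and 3. NQO1, the quinone reductase, was at 1338, 1349 and 1421 CPM, and its relative NQO2 at 86.5, 92.8 and 87 CPM. AKR1B10 and AKR1B1 stood at 365 ± 14.6 and 481 ± 6.91 CPM, PTGR1 at 701 ± 31.8 CPM and CBR1 at 426 ± 9.98 CPM. Of the list 17 of 22 were at 10 CPM or more. The aldehyde dehydrogenase ALDH3A1 was at 38.7 ± 3.26 CPM and ALDH1A1 at 0.638 ± 0.721 CPM. AKR1C4 had 0.564 ± 0.401 CPM and CYP4F3 1.81 ± 0.385 CPM. UGT1A1 and UGT1A6 were at or near 0, but 8 of 9 UGT1A genes were at 0, and these genes share exons, so their zeros are uncertain.

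**Figure D4:**
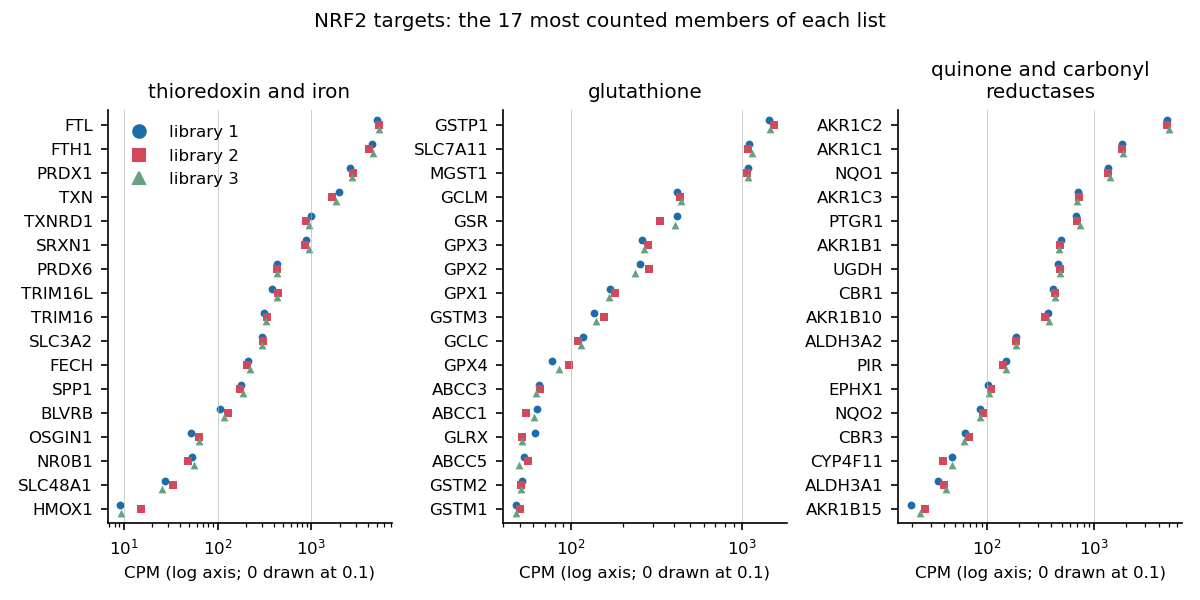
Each point is the level of 1 NRF2 target in 1 library, in CPM on a log axis, for the 17 most counted members of each of 3 lists. The libraries lie close together along the whole range, from FTL at 5024 to 5206 CPM to HMOX1 at 9.25 to 15.4 CPM.

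Enzymes that supply NADPH and intermediates were abundant. Of the 13 genes of NADPH supply and the pentose phosphate pathway 12 were at 10 CPM or more, with a median of 187 CPM, and only TKTL1 was at 0. Transaldolase TALDO1 (641 ± 7.37 CPM), transketolase TKT (596 ± 49.8 CPM), PGD (449.8 ± 25.5 CPM) and malic enzyme ME1 (274 ± 20.5 CPM) were among the most counted. Glycolysis genes had a median of 149.7 CPM and took 1.71%, 1.69% and 1.64% of counts. Both lactate dehydrogenase genes were abundant, LDHB at 1343 ± 21.3 CPM and LDHA at 1231 ± 52.1 CPM, as were ENO1 and the pyruvate kinase gene PKM (PKM2 in the table, 1593 ± 42.4 CPM). The glucose transporter SLC2A1 was at 199, 156 and 153 CPM, highest in library 1, and the hexokinases HK1, HK2 and HKDC1 at 129.8 ± 4.33, 96 ± 6.21 and 66.2 ± 3.60 CPM. PKLR, the pyruvate kinase gene of liver and red cells, was at 0.

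Of the 24 genes of the tricarboxylic acid cycle 23 were at 10 CPM or more. Malate dehydrogenase MDH2 led at 621 ± 5.89 CPM, while pyruvate carboxylase, PC, which refills the cycle, was at 1.27 ± 0.585 CPM. Serine and one-carbon enzymes were present, with MTHFD2 at 437 ± 33.1 CPM, PSAT1 at 335 ± 24.9 CPM, SHMT2 at 255 ± 18.9 CPM and PHGDH, the first enzyme of serine synthesis, at 144 ± 5.43 CPM. CPS1, a mitochondrial urea cycle enzyme known to be high in STK11-mutant lung lines, was at 38.3, 32.9 and 33.8 CPM, and OTC and ARG1, later steps of the cycle in liver, were at 0. Among lipid genes SCD (487 ± 33.2 CPM), FASN (397 ± 7.59 CPM) and ACLY (317 ± 13.1 CPM) led, and FADS2, a desaturase beside FADS1 (184 ± 9.64 CPM), was at only 2.93 ± 1.17 CPM.

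Library 1 was the highest in 11 of the 15 hypoxia genes, which were listed with earlier results of these data known. These genes are not independent, and the share of all genes highest in library 1 is not given here. NDRG1 was at 97.5, 46.1 and 38.7 CPM, CA9, a carbonic anhydrase, at 38.3, 18.7 and 19.2 CPM and VEGFA at 102, 78.3 and 78.6 CPM. Libraries 2 and 3 lay close together in CA9 and VEGFA. CA9 shares 38.5% of its exon bases with other genes, so part of its reads may belong to those genes. Of the 14 tested members of the list 7 were called between libraries, against 7.27% of all tested genes. Calls grew with level, so 7.27% is not the share at the levels of this list, and the count is no test of it. Under 100 CPM, VEGFA, NDRG1, ADM and CA9 were called, while EPAS1, ARNT, ANKRD37 and EGLN3 were not. Of all tested genes, 2.63% were called at 10 to 30 CPM and 4.49% at 30 to 100 CPM. Transcripts of the oxygen-regulated factors differed little: HIF1A was at 176, 180.4 and 171 CPM and EPAS1 at 89.1, 79.4 and 82.6 CPM (edgeR adjusted p = 0.791 and 0.544). RNA levels do not give the amount or activity of their proteins, and whether these differed between libraries was not tested.

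Genes of epithelial junctions and the keratins of simple epithelia were expressed. EPCAM, an epithelial adhesion molecule, was at 664, 628 and 645 CPM and CDH1, E-cadherin, at 71.4, 60.3 and 65.8 CPM (edgeR adjusted p = 0.341 and 0.348 between libraries). Of 34 genes of epithelial junctions and identity 25 were at 10 CPM or more, among them the claudins CLDN4 (367 ± 20.8 CPM) and CLDN7 (187 ± 8.51 CPM), desmoplakin DSP (271 ± 13.3 CPM) and the epithelial splicing factor ESRP1 (164 ± 5.60 CPM). CLDN18, a claudin of lung and stomach, was at 0. Keratins were few: 7 of 28 genes were at 10 CPM or more and 13 at 0, against 37.3% and 33.3% of all genes. KRT18 was at 506, 542 and 461 CPM, KRT7 at 320.2, 337 and 316 CPM, KRT8 at 90.4, 79 and 75.4 CPM and KRT19 at 52.5, 44.7 and 45.4 CPM, the set of simple epithelia. KRT10, known from the epidermis, was at 141, 132 and 149.9 CPM. Per length KRT18 (526 ± 43 TPM) was far above its partner KRT8 (39.9 ± 4.13 TPM). KRT5 was at 0 and KRT14 had 1 count in all, and of the 9 basal and squamous markers 0 were at 10 CPM or more.

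Markers of differentiated lung cells differed by cell type. The 5 surfactant protein genes of the alveolar type 2 list had 2 counts together over the 3 libraries, where 3 counts correspond to 0.22 CPM. Of the other members, the lipid transporter ABCA3 was at 14.8, 15 and 13.8 CPM, LAMP3 at 1.51, 2.03 and 2.71 CPM, and NAPSA, napsin A, had 0 counts. Of the alveolar type 1 markers, 2 of 6 were at 10 CPM or more, near the 37.3% of all genes. CAV1, caveolin, was at 183, 183 and 169.8 CPM and RTKN2 at 22, 20.3 and 22.9 CPM, while AGER was at 1.29, 1.01 and 1.48 CPM, PDPN, podoplanin, at 0.43, 3.25 and 0.74 CPM, and AQP5 and CLIC5 were at 0. Among club cell markers SCGB1A1, SCGB3A1 and CYP2F1 were at 0, and the ciliated cell factor FOXJ1 had 1 count. The gel-forming mucin genes MUC5B and MUC2 had 1 count and 0 counts, while the membrane mucin MUC13 was at 14.2, 13.6 and 16.5 CPM and MUC1 at 2.15, 2.23 and 1.97 CPM. Genes of secreted airway proteins were also seen, with SLPI, a protease inhibitor, at 61.1, 68.4 and 71 CPM and WFDC2 at 35.5, 42 and 32.3 CPM. Markers on the neuroendocrine list were near 0 (CHGA 0.361 ± 0.0999 CPM, and CHGB, INSM1 and NEUROD1 at 0), except the granin SCG2 at 12.5, 10.6 and 7.89 CPM. That list does not hold UCHL1 or the peptide genes GAL and NMB, which were abundant and are given below. Of the 22 transcription factors of lung lineage, 7 were at 10 CPM or more and 5 at 0, with a median of 4.39 CPM, where 37.3% of all genes were at 10 CPM or more, 33.3% were at 0 and the median was 1.30 CPM. Endothelial and blood markers summed to 3.23, 1.62 and 0.74 CPM and to 3.44, 5.28 and 3.45 CPM, with PECAM1, CDH5, PTPRC and CD3E at 0.

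Mesenchymal genes were mixed. TGFBI, a secreted matrix protein, was at 865, 926 and 913 CPM and CDH2, N-cadherin, at 16.6, 15.2 and 16.3 CPM, alike in the 3 libraries. VIM, vimentin, was at 15.1, 14.4 and 4.44 CPM, lower in library 3 (edgeR adjusted p = 1.61e-05). VIM reached a mean of 5 CPM, and so was tested, only through libraries 1 and 2. Of the transcription factors, SNAI1 was at 14, 9.95 and 10.1 CPM, ZEB1 at 3.01, 3.04 and 3.20 CPM, ZEB2 at 1.08, 1.42 and 0.247 CPM and TWIST1 had 1 count. AXL, a receptor tyrosine kinase of mesenchymal cells, was at 1.51, 0.609 and 0.247 CPM. Of the 37 genes of the collagen and matrix list, which does not hold TGFBI, the laminins LAMB3 (148 ± 9.22 CPM), LAMC1 (148 ± 19.2 CPM) and LAMB1 (142 ± 3.92 CPM) had the most counts.

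**Figure D5:**
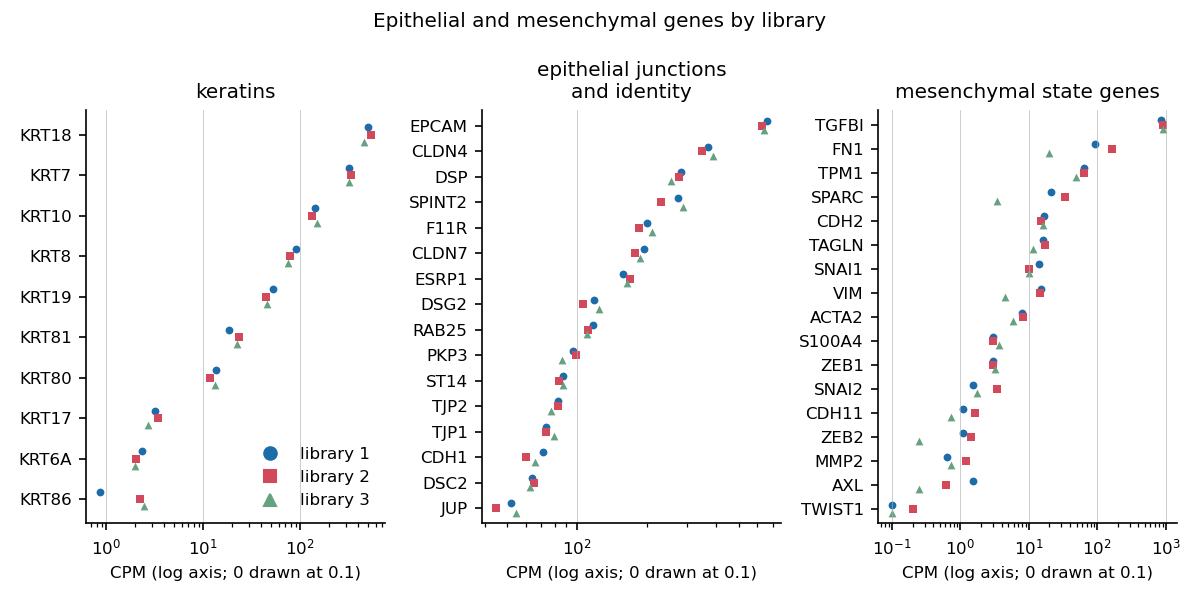
Each point is the level of 1 gene in 1 library, in CPM on a log axis with 0 drawn at 0.1, for the most counted keratins, epithelial junction genes and mesenchymal state genes. Epithelial genes lie together in the 3 libraries, while FN1, SPARC and VIM are lower in library 3 (triangles).

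Among lung cancer genes, NRAS was at 58.1, 47.3 and 59.4 CPM and HRAS at 32.3, 39.6 and 39.9 CPM. Per length HRAS (67.6 ± 7.36 TPM) stood above NRAS (41.5 ± 5.13 TPM). The receptors MET and ERBB3 were at 79.6 ± 1.22 and 71.9 ± 8.48 CPM, EGFR at 36.6, 35.9 and 36 CPM and ERBB2 at 6.67, 7.92 and 8.38 CPM. ALK and ROS1, which are fused in other lung tumours, had 0 counts, and RET had 1 count. Per length CDK4 (226 ± 4.53 TPM), MYC (124 ± 14.4 TPM) and CCND1 (97.9 ± 4.81 TPM) stood above CDK6 (46.1 ± 0.739 TPM). MYCL1 and MYCN were at 2.92 ± 0.822 and 0.931 ± 0.89 CPM.

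The targets and feedback regulators of MAPK signalling were present, with 18 of 23 at 10 CPM or more and a median of 42.3 CPM. IER3 (551 ± 35.9 CPM) and PHLDA1 (217 ± 6.64 CPM) led. DUSP6, an ERK phosphatase, was at 79.6, 55.8 and 63.1 CPM, and DUSP4 at 109, 93 and 103 CPM. The ETS factors ETV4 and ETV5 were at 52.5 ± 1.03 and 62.3 ± 3.69 CPM, the AP-1 subunit FOSL1 at 15.9, 15.8 and 15.5 CPM and SPRY2 and SPRY4, inhibitors of RAS signalling, at 10.6 ± 0.447 and 12.9 ± 2.72 CPM. Of the EGFR family ligands, AREG was at 35.5, 33.9 and 36.7 CPM and TGFA at 35.3, 32.9 and 37.7 CPM, and EREG at 0.215, 0.812 and 1.48 CPM.

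Tumour suppressor transcripts were mostly present. SMARCA4, a chromatin remodeller, was at 288, 314 and 292 CPM and RB1 at 47.6, 38 and 48.3 CPM, each alike in the 3 libraries. STK11 was low, at 4.52, 3.86 and 5.42 CPM. CDKN2A and CDKN2B, neighbouring genes for inhibitors of CDK4 and CDK6, were at 0.215, 0.609 and 0 CPM and at 0.43, 0.203 and 0.247 CPM, near or under the level of 3 counts per library. The antisense gene of that locus, CDKN2B-AS1, was at 0. The nearby genes MTAP and KLHL9 were at 75.1, 78.3 and 66.3 CPM and at 83.3, 75.1 and 78.9 CPM.

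Few chemokines and interleukins were abundant. Of 24 chemokines 4 were at 10 CPM or more and 13 at 0, against 37.3% and 33.3% of all genes. IL8 (CXCL8), a neutrophil chemokine, was at 101, 85.9 and 100.3 CPM, CXCL16 at 55.3, 60.5 and 60.4 CPM and CXCL2 at 23, 18.1 and 17.3 CPM. CCL5, CXCL9, CXCL10 and CXCL11, which recruit T cells, were at 0, and CXCL14 was at 6.89, 11.6 and 0.74 CPM, lowest in library 3. Among interleukins and growth factors, MIF had 1193 ± 74.3 CPM. CSF3, which encodes the granulocyte factor G-CSF, was at 132, 135 and 120.0 CPM, and IL32 at 101, 126 and 125 CPM. IL6, IL1B and TNF were at 0.304 ± 0.164, 0.942 ± 1.15 and 0.139 ± 0.121 CPM, and CSF2 was at 0. Per length CSF3 (195 ± 12.3 TPM) stood above IL8 (142 ± 13.1 TPM) and IL32 (123 ± 14 TPM), and MIF (3618 ± 212 TPM) far above these.

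Of the cytokine receptors 17 of 29 were at 10 CPM or more, against 37.3% of all genes. Among the 17 were the death receptor TNFRSF10B (116 ± 7.25 CPM), IFNGR2 (115 ± 2.96 CPM) and OSMR (57.3 ± 7.06 CPM). Class I antigen presentation was abundant: B2M was at 791, 663 and 810.0 CPM and HLA-C at 565, 571 and 537 CPM. HLA genes are close paralogs, so counting can split their reads. Class II genes were near 0, with HLA-DRA at 0.414 ± 0.406 CPM, CD74 at 0.566 ± 0.66 CPM and their regulator CIITA at 0. CD274, which encodes PD-L1, was at 3.44, 2.44 and 2.22 CPM. In the cytosolic DNA pathway, TMEM173 (STING) was at 2.58, 4.87 and 3.70 CPM and MB21D1 (cGAS) at 0, the latter with few exon bases shared with other genes. Interferon-stimulated genes had a median of 3.73 CPM. IFI44L was at 30.6 ± 1.35 CPM, but ISG15 was at 3.10 ± 0.413 CPM and MX1 at 0.217 ± 0.205 CPM.

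Proliferation genes were expressed. All 35 genes of S phase and all 32 of G2 and mitosis were at 10 CPM or more, with medians of 62.2 and 191 CPM. TOP2A, the topoisomerase of mitotic chromosomes, was at 1316, 1310.0 and 1326 CPM, MKI67 at 459, 486 and 448 CPM and PCNA at 532, 512 and 539.6 CPM (edgeR adjusted p = 0.91, 0.164 and 0.435 between libraries). Ribosomal protein genes took 9.64%, 10.1% and 9.77% of counts and 75 of 78 were at 100 CPM or more. Replication-dependent histone genes, whose transcripts lack poly(A) tails, were mostly near 0, with 4 of 39 at 10 CPM or more, led by HIST1H4C at 395 ± 41.2 CPM. The histone variant gene H2AFZ, with a polyadenylated transcript, was at 2767 ± 89.8 CPM.

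A gene family that is patterned along the body axis was partly on. Of 39 HOX genes 8 were at 10 CPM or more and 7 at 0, against 37.3% and 33.3% of all genes. HOXD11 was at 61.3, 64.5 and 67 CPM, HOXD10 at 55.3, 62.3 and 63.6 CPM, HOXA3 at 47.3, 41 and 43.1 CPM, HOXA5 at 41.3, 42.8 and 41.4 CPM and HOXC8 at 39.2, 43 and 37.2 CPM. The other expressed members were HOXC6, HOXD9 and HOXA11, and no HOXB gene reached 2 CPM. The 5 genes given by library were alike in all of them. HOXD11 and HOXA11 share 21.4% and 31.1% of their exon bases with other genes, and whether counting used strand is unknown, so part of their reads may belong to those genes.

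S100 genes, which encode small calcium-binding proteins, were high in part. Of 19, 10 were at 10 CPM or more and 7 at 100 CPM or more, against 37.3% and 9.41% of all genes. S100A9 was at 592, 572 and 503 CPM and its dimer partner S100A8 at 16.1, 13.8 and 15.5 CPM. Per length S100A9 (3241 ± 289 TPM) stood far above S100A8 (50.7 ± 4.31 TPM). Of the metallothioneins MT2A was at 1461, 1332 and 1389 CPM, while MT1F was at 15.3 ± 0.867 CPM, MT1X at 9.90 ± 3.98 CPM and MT1G at 1.56 ± 1.89 CPM, and per length MT2A (3609 ± 192 TPM) was far above MT1X (18.8 ± 7.72 TPM). Among 55 cytochrome P450 genes 30 were at 0 and 6 at 10 CPM or more, against 33.3% and 37.3% of all genes. CYP24A1, which breaks down active vitamin D, led at 394, 301 and 377 CPM, lowest in library 2 (edgeR adjusted p = 4.67e-13), and its inducer, the vitamin D receptor VDR, was at 103, 93.6 and 89.5 CPM. Oncofetal genes were led by HMGA1 at 273 ± 22.4 CPM and IGF2BP3 at 94.9 ± 7.91 CPM, and of the 30 genes of that list 18 were at 0, including all MAGEC and SSX genes in it, while PRAME was at 27.3, 22.9 and 26.4 CPM.

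Several abundant genes belong to no list and were chosen after their values were seen. UCHL1, a deubiquitinase best known from neurons, was at 1827, 1808 and 1940.5 CPM and ranked 39 by TPM. GAL, the neuropeptide galanin, was at 366, 369 and 394 CPM, and NMB, neuromedin B, at 142, 134 and 131 CPM. SRGN, a proteoglycan of secretory granules known from blood cells, was at 799, 739 and 809 CPM and TFPI2, a protease inhibitor, at 1446, 1449 and 1492 CPM. The differentiation inhibitors ID1 and ID3 were at 646 ± 31.3 and 353 ± 16.2 CPM. GATA2 was at 26.3, 24 and 29.1 CPM and ZIC2, a developmental zinc finger factor, at 41.1, 38.4 and 40.4 CPM. Each of these was at a similar level in the 3 libraries, with GATA2 the most uneven of them. UCHL1, SRGN and ID1 were nonetheless called between libraries (edgeR adjusted p = 0.000383, 0.00553 and 0.0165), although the differences were small.

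Silence by count was not always absence of a transcript. EIF4A1, a translation factor that every cell uses, had 0 counts in all 3 libraries, and RPL21, a ribosomal protein, had 1 count. Among protein-coding genes, 86 of 108 genes (79.6%) that share at least 90% of their exon bases with another gene of the table were at 0, against 4017 of 14251 (28.2%) that share none. Zeros were the rule in families restricted to other tissues: 385 of 393 olfactory receptor genes, 86 of 88 keratin-associated protein genes and all 14 interferon alpha genes were at 0. Of 1220 microRNA genes, 1182 were at 0, which says nothing of the mature forms. Over the 3 libraries together, 0 counts allow a level of up to 0.22 CPM, a limit that covers counting error only.

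Promoters of genes with higher levels held more CpG. CpG content was taken as the observed over expected ratio in the window from 250 bases before to 50 bases after the start, with the highest window where a gene had several. The median ratio was 0.321 in the 3511 protein-coding genes without a count, 0.707 under 1 CPM, 0.828 at 1 to 10 CPM, 0.887 at 10 to 100 CPM and 0.907 at 100 CPM or more. A ratio of at least 0.6 was reached by 29.9% of the silent genes and by 95.7% of those at 100 CPM or more. GPX2, whose sequence is shown above, was at 254, 287 and 238 CPM with a ratio of 0.187, below the lower quartile of its class (0.807), whereas GSTP1 and GCLM had 0.879 and 1.10.

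LCLAT1, the gene that the other shRNA of the study targets, encodes an acyltransferase that remodels cardiolipin and phosphatidylinositol. In the control cells it was at 57, 61.3 and 65.3 CPM, or 27.4 ± 1.67 TPM, and ranked 4632 of 21657 genes. A difference between the libraries beyond counting error was not detected (edgeR adjusted p = 0.585).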

How the data were processed

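RNA was sequenced from 6 samples, and the 3 labelled as control shRNA were used. The authors deposited 1 table of whole-number counts per gene symbol, not normalized. Per the submitters' processing notes, the tools were featureCounts 1.5.1 with BWA 0.7.15, Bowtie2 and bcl2fastq 2.17, and the builds hg19 and mm10. The aligner and build behind the table, and use of strand, are not given in the sources used here. As molecule, total RNA is given by the labels, while their protocol speaks of mRNA.

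The 3 libraries were scaled with TMM (edgeR 4.0.16, R 4.3.3). Lengths were the merged exons of GENCODE release 29, found for 21657 genes (20151 by symbol, 1506 by an older symbol) holding 99.0% of counts, and used for lengths and overlaps only. TPM was computed from them. Spread between libraries was tested with an edgeR likelihood ratio test with dispersion 0 (2 degrees of freedom) for genes whose mean was 5 CPM or more, with Benjamini-Hochberg adjustment over all 9979. It compares these libraries, and the spread may be technical. Tested on simulated data for these 9979 genes, it recovered 66% of genes changed 1.5-fold and 89% of those changed 2-fold in 1 library, with 5.49% false calls. The common biological coefficient of variation was 5.50%.

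Members and lists (44 lists, 4 families by name pattern and 1 list added later) were chosen with earlier results of these data known. Genes named were the top 20 by CPM and by TPM, up to 8 members per list and its defining members, the 20 with the most spread, and LCLAT1. Other genes were picked with their values known. Surfactant genes and lung lineage factors are not reported singly here, and some other genes of the lists are not reported here. Alternatives tried were library totals, DESeq2 1.42.0 size factors, counts thinned to the shallowest library, other filters, a Pearson chi-square, the longest transcript as length, and leaving out each library.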

Additional observations from a re-analysis of the deposited data

How the results depend on the processing

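The number of genes called was 725 with all libraries and 119 to 620 with 1 left out (392 without library 1, 119 without library 2 and 620 without library 3). With 2 libraries in place of 3 the test also has fewer counts, and the cause was not tested. Asking in addition for at least 2-fold between libraries, an alternative chosen after seeing the data, left 61. That smaller number was 29, 32 and 32 without library 1, 2 and 3, 130 with no filter on low counts, 26 at a mean of 10 CPM or more and 55 to 61 under the other settings. Under library totals, DESeq2 size factors, other filters, a Pearson chi-square and thinned counts 641 to 725 genes were called. With 1 library left out, fibroblast markers at 10 CPM or more numbered 1 to 2 and neuroendocrine markers 0 to 1, where all libraries gave 2 and 1. The other 48 of 50 list counts (the NRF2 targets also as 1 list) and the 5 level classes stayed within 1.5 times under every alternative run for them. Genes without a count rose from 7783 to 8071 to 8397 with 1 library left out, as fewer counts leave more zeros. Ranks by TPM depended on length: with the longest transcript 918 of 941 ranks stayed within 2 times, and by CPM 799. No paired analysis was possible because 1 group was analysed and no groups were compared. At 4075367 to 4930079 counts per library, levels under 1 CPM rest on few counts.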
